A study of Mus musculus with 6 samples.

Results

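Histone acetylation is laid down by lysine acetyltransferases, removed by deacetylases and bound by proteins with a bromodomain or by the subunits that hold these enzymes on chromatin. The genes described here are 48 members of these families that lie outside the complexes of Brpf1 itself, chosen by name. All 48 were among the 55335 genes of the deposited table. Of these, 45 reached a mean of at least 1 FPKM (fragments scaled to transcript length and library depth) in either group and were among the 12792 genes tested. Baz1a, Cecr2 and Atad2 stayed below that level in both groups and are given by value only.

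The study asks what Brpf1 does in GABAergic interneurons, the inhibitory neurons, of the medial ganglionic eminence. Brpf1 is a scaffold with a bromodomain that holds the acetyltransferases Kat6a, Kat6b and Kat7. RNA was sequenced in 6 libraries from cultured cells of wild-type C57BL/6 brain taken at embryonic day 14.5, all infected with an adeno-associated virus (AAV) for 12 hours: 3 with AAV-shbrpf1, named for a short hairpin against Brpf1, and 3 with AAV-scramble. The promoter of the hairpin and the time from infection to harvest are not stated in the sources used here, and no sample without virus is among the 6. The titles call the cells GABAergic interneurons, whereas the source field calls them neural progenitor cells. The titles also number the libraries 1 to 3 within each group without saying what a number stands for or whether the libraries of a group came from separate embryos or cultures, so the p-values rest on the spread among these samples alone, and that spread may be technical.

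Depth was estimated at 13100000 to 21100000 fragments per library. All 11 markers of GABAergic neurons passed the filter, with a summed level of 680 to 1147 FPKM in the AAV-scramble libraries and 716 to 966 FPKM in the AAV-shbrpf1 libraries. Markers of neural progenitors summed to 302 to 953 FPKM, those of astrocytes to 334 to 992 FPKM and those of the oligodendrocyte lineage to 138 to 321 FPKM. The most abundant genes of these 3 lists were Fabp7, Apoe and Olig1, with means of 499, 337 and 121 FPKM. The cultures thus held RNA of these markers too, and whether it came from separate cells of each class was not tested. None of the 9 markers of glutamatergic neurons and none of 5 erythroid markers passed the filter. Of 10 microglial markers only Cd68 passed, at a mean of 1.28 FPKM, while Cx3cr1 and C1qc were at 0 in all 6 libraries. Fewer cells of a type and less RNA per cell cannot be told apart in such bulk samples. In the libraries numbered 2, ribosomal RNA loci took an estimated 7.95% and 12.3% of fragments, against 2.24% to 3.94% elsewhere.

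As background, acetyl groups on the tails of histones H3 and H4 loosen chromatin and are read by bromodomains, which recruit the transcription machinery and chromatin remodelers. The acetyltransferases draw on acetyl-CoA, the classical deacetylases need zinc, and the sirtuins use NAD. In developing brain Hdac1 and Hdac2 act in repressor complexes such as NuRD, SIN3 and CoREST, Hdac3 acts with NCoR, and Crebbp and Ep300 are enhancer coactivators.

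Brpf1, the targeted gene, is the check of the labels. It was listed at 3.29, 5.45 and 4.84 FPKM in AAV-scramble libraries 1, 2 and 3 and at 3.13, 4.58 and 3.78 FPKM in AAV-shbrpf1 libraries 1, 2 and 3. The means were 4.53 ± 1.11 and 3.83 ± 0.723 FPKM (SD, n = 3). The groups overlapped, and each AAV-shbrpf1 value was below the AAV-scramble value of the same number. On the scale used for all tests, log2(FPKM + 1), the difference was -0.18 ± 0.26 (SE), with an adjusted p of 1 in limma (Benjamini-Hochberg over all genes tested). Permuting the group labels exactly (two-sided) gave p = 0.4 for the means, and 3 libraries against 3 cannot go below 0.1. The difference in Brpf1 RNA was not larger than the spread between replicates, and the values below compare cultures by the virus they received.

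None of the acetylation genes passed the test between AAV-shbrpf1 and AAV-scramble. Of the 45 members tested, 0 passed an adjusted p of 0.05 in limma, against a background of 0% of all genes tested, and 0 had an unadjusted p under 0.05 (background 0.18%). With the replicate number as a block, since same-numbered libraries deviated together, the counts were again 0 (background 0%) and, unadjusted, 0 (background 2.19%). No member had groups that did not overlap (background 1.07%, of which 0.578% higher and 0.492% lower with AAV-shbrpf1). The median member difference was -0.01 on the log2(FPKM + 1) scale, beside -0.02 over all genes tested.

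Within the pairs of the same number, 7 members were lower with AAV-shbrpf1 in 3 of 3 pairs (background 11.3%): Kat2a, Kat8, Hdac2, Hdac6, Brd7, Ing1 and Ing3. None was higher in 3 of 3 pairs (background 7.15%). The size of change that the data leave room for depended on the fit. With the block, the 95% interval lay within -1 to 1 for 45 of 45 members (background 97.4%) and within -0.5 to 0.5 for 43 (background 79.5%). The exceptions were Naa50 (-0.67 to 0.24) and Phip (-0.51 to 0.26), both still including 0. Without the block the 95% interval was wider for Hdac2 (-1.49 to 1.24), Kat2b (-1.10 to 0.76) and Naa50 (-1.39 to 0.96), among others.

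**Figure D1:**
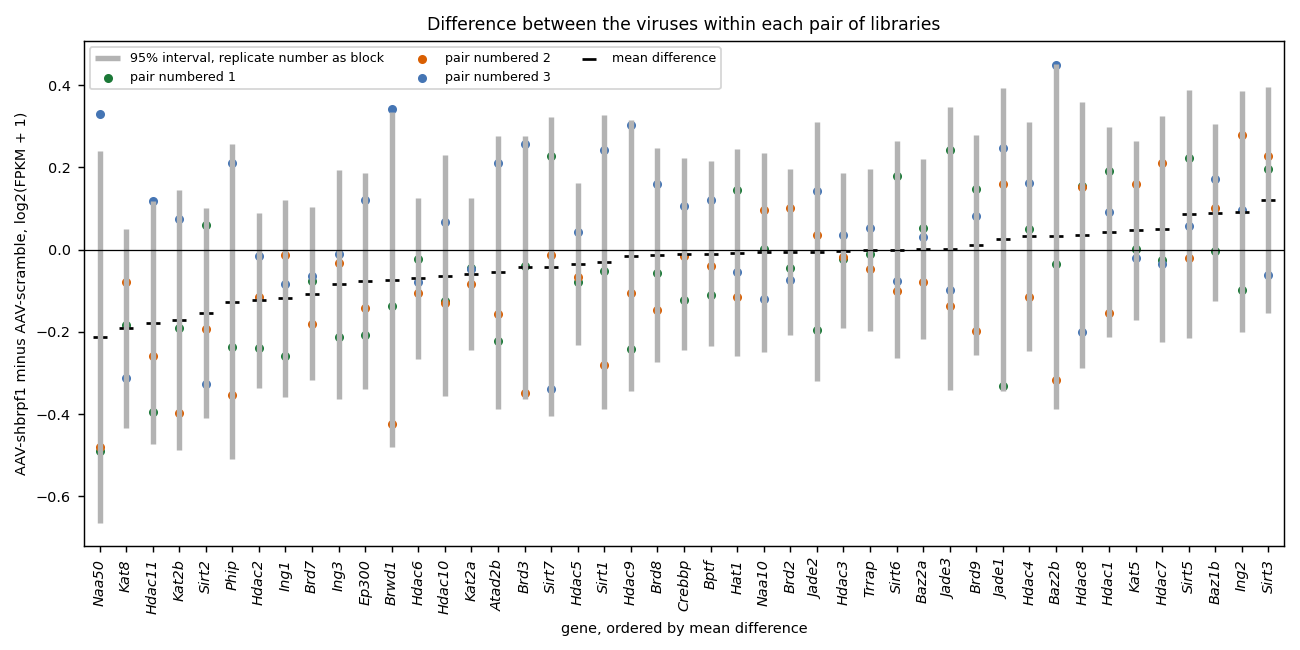
Difference between AAV-shbrpf1 and AAV-scramble on the log2(FPKM + 1) scale (y axis) for each of the 45 members tested (x axis, ordered by mean difference). Points are the 3 pairs of libraries with the same replicate number, dashes their mean and grey bars the 95% interval of the limma fit with the replicate number as a block. Every bar spans 0, and the pairs of a gene often lie on both sides of it.

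The libraries differed far more by replicate number than by virus. Of the members' total sum of squares on the log2(FPKM + 1) scale, 94.7% lay between numbers, 1.1% between viruses and 4.2% in the remainder, beside 86.9%, 3.6% and 9.5% over all genes tested. In limma's F test of the number with the virus in the model, 32 members (71.1%) differed at an adjusted p under 0.05 (background 69.4%), a share near that of all genes. The 13 that did not pass were Kat5, Kat8, Hdac7, Hdac8, Hdac11, Sirt3, Sirt5, Sirt6, Sirt7, Baz2a, Ing2, Jade1 and Jade2. Without AAV-scramble library 1 the count of members was 21.

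Between number 2 and number 1, 9 members were higher (background 22.9%) and 23 lower (background 42.4%) in number 2. Between number 3 and number 1, 9 were higher (background 15.3%) and 7 lower (background 15.8%) in number 3, and between number 3 and number 2, 17 were higher (background 34.3%) and 5 lower (background 12.9%) in number 3. These 3 contrasts share libraries, and p-values were adjusted over genes within each. The splits depend on the scaling: with median-ratio scaling they were 12 higher and 17 lower for 2 against 1 (all genes 32.5% and 32.8%) and 10 and 12 for 3 against 2 (18.3% and 22.4%). With quantile normalization they were 14 and 17 (all genes 32.6% and 31%) and 11 and 9 (18.6% and 18.6%). The deposited scale itself sets the median of all genes at -0.25 for 2 against 1 and 0.25 for 3 against 2, where median-ratio scaling sets it at -0.01 and 0.03. Relative to the median of all genes, the members' median for 2 against 1 was -0.18 as deposited, -0.15 with median-ratio scaling and -0.06 with quantile normalization.

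Single libraries carried some of these counts. The F test count over all genes also fell without library 1 of either virus, so the falls below are not read as particular to the members. Leaving out library 1 of AAV-scramble or of AAV-shbrpf1, the called members fell to 20 and 21 for 2 against 1 and to 0 in either case for 3 against 1. Without AAV-scramble library 3, 5 were called for 3 against 1, and without AAV-shbrpf1 library 3, 10 for 3 against 2. Leaving out both libraries numbered 2, which hold the most ribosomal RNA, 9 members were higher and 9 lower for 3 against 1, near the 17.8% and 21.3% of all genes.

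**Figure D2:**
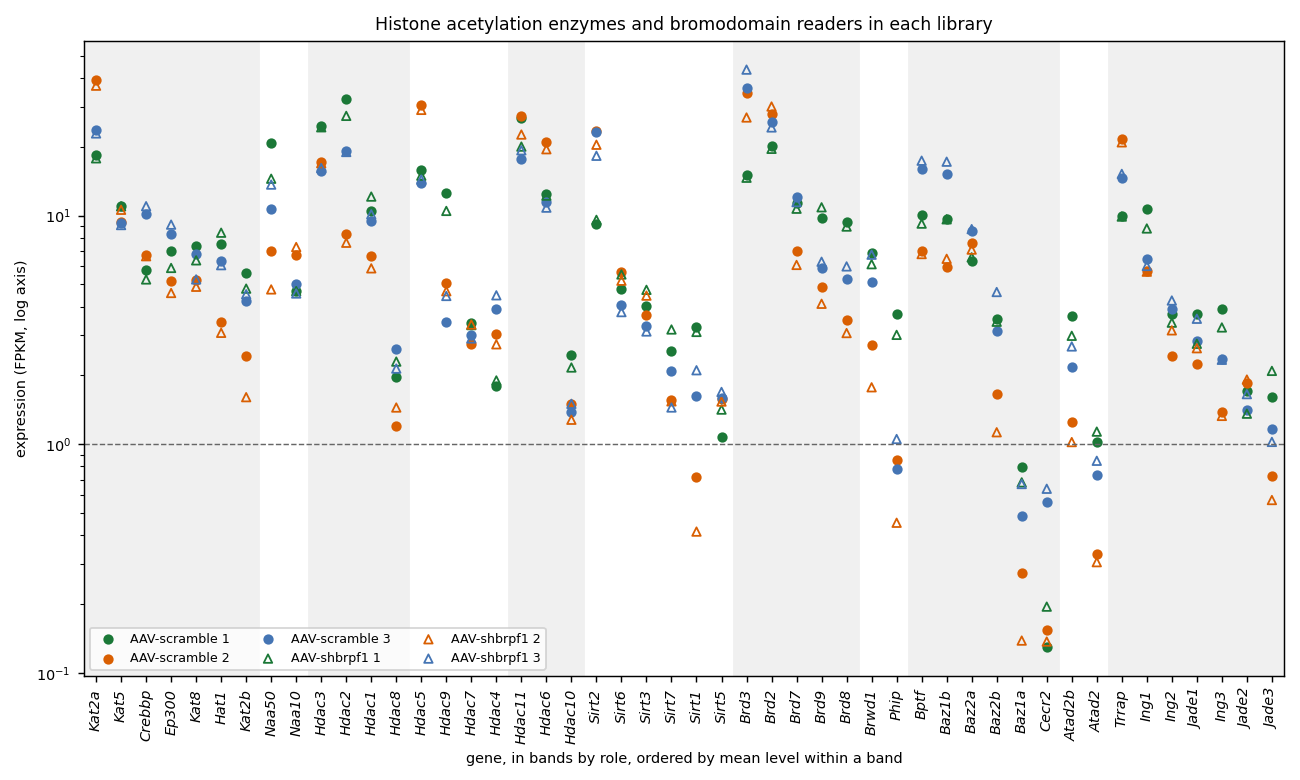
Expression in FPKM (log y axis) of all 48 members in each library (x axis, genes in shaded bands by role, ordered by mean level within a band). Filled circles are AAV-scramble and open triangles AAV-shbrpf1, with 1 color per replicate number, and the dashed line marks 1 FPKM. Symbols of the same color lie close together whatever the virus, and only Baz1a, Cecr2 and Atad2 fall below the line on average in both groups.

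The direction of the differences between numbers followed the base composition of the transcripts. Across the 45 members, the difference between number 2 and number 1 rose with the GC content of the longest transcript (Pearson r = 0.73 across genes, beside 0.75 over 12785 genes). The corresponding r was 0.33 for 3 against 1 and -0.66 for 3 against 2 (0.46 and -0.64 over all genes). Genes within a library share its depth and base composition and are not independent replicates. Of the 25 members with a GC content of at least 50%, 9 were higher and 7 lower in number 2 than in number 1. Of the 20 under 50%, 0 were higher and 16 lower. Without regard to GC content, 22.9% of all genes were higher and 42.4% lower. The split at 50% was not made for all genes, whose r was close to that of the members. It is therefore not read as particular to the members. The members' own GC content ran from 37.2% (Naa50) to 58.9% (Hdac7), with a median of 50.8% beside 50.2% over all genes tested.

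The start of the coding sequence is shown for 2 pairs of closely related enzymes, chosen after their values were seen, of which the Hdac pair differs in base composition in the same direction there as over the whole coding sequence and the Kat2 pair does not. The first 40 codons are given, in the longest coding transcript of GENCODE M21 (GRCm38), with G or C at the third base of a codon in capitals.
Hdac1: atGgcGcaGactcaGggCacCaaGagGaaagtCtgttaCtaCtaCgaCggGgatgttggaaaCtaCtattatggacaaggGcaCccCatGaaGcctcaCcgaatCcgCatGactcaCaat
Hdac2: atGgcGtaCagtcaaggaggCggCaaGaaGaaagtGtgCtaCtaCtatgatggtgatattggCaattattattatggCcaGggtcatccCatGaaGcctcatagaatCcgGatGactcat
Kat2a: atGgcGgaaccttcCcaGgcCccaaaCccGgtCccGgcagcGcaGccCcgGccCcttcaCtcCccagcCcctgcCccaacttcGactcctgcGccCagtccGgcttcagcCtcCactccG
Kat2b: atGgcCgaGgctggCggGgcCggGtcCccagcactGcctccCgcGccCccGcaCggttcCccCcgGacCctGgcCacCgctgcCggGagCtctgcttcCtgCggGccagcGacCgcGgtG
Hdac1 has G or C at that base in 26 of these 40 codons and Hdac2 in 20. Over the whole coding sequence the shares are 62.0% for Hdac1 and 42.8% for Hdac2. In the other pair the starts run the other way, 25 of 40 codons in Kat2a and 31 in Kat2b, but over the whole coding sequence Kat2a has 70.8% and Kat2b 58.6%, and over the whole transcript 57.7% and 46.6%.

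A correction of each library for transcript length and GC content (a loess fit over all genes) was run beside the deposited values. After it, 24 members passed the F test (background 43.3%). In the contrasts, 6 members were higher (background 18.4%) and 15 lower (background 17.1%) for 2 against 1, 6 higher (background 13.1%) and 14 lower (background 12.9%) for 3 against 1, and 5 higher (background 9.57%) and 7 lower (background 10.9%) for 3 against 2. Members called in the same direction with the deposited values, with both other scalings and after this correction were few enough to name. In number 2 against number 1 they were Kat2a, Hdac6, Sirt2, Brd3 and Trrap, all higher, and Kat2b, Hdac1, Hdac2, Sirt1, Brd8, Brd9, Brwd1 and Ing1, all lower. In number 3 against number 1 they were Crebbp, Hdac4, Sirt2, Brd3, Baz1b and Bptf, higher, and Hdac3, Hdac9, Brd8, Brd9, Phip and Ing1, lower. In number 3 against number 2 they were Ep300, Hdac2, Baz1b and Bptf, higher, and Kat2a, Hdac5, Hdac6 and Trrap, lower. These calls were not required to hold when 1 library was left out. Those for 3 against 1 did not hold without library 1 of either virus, as given above, and this limit applies to the same calls below.

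**Figure D3:**
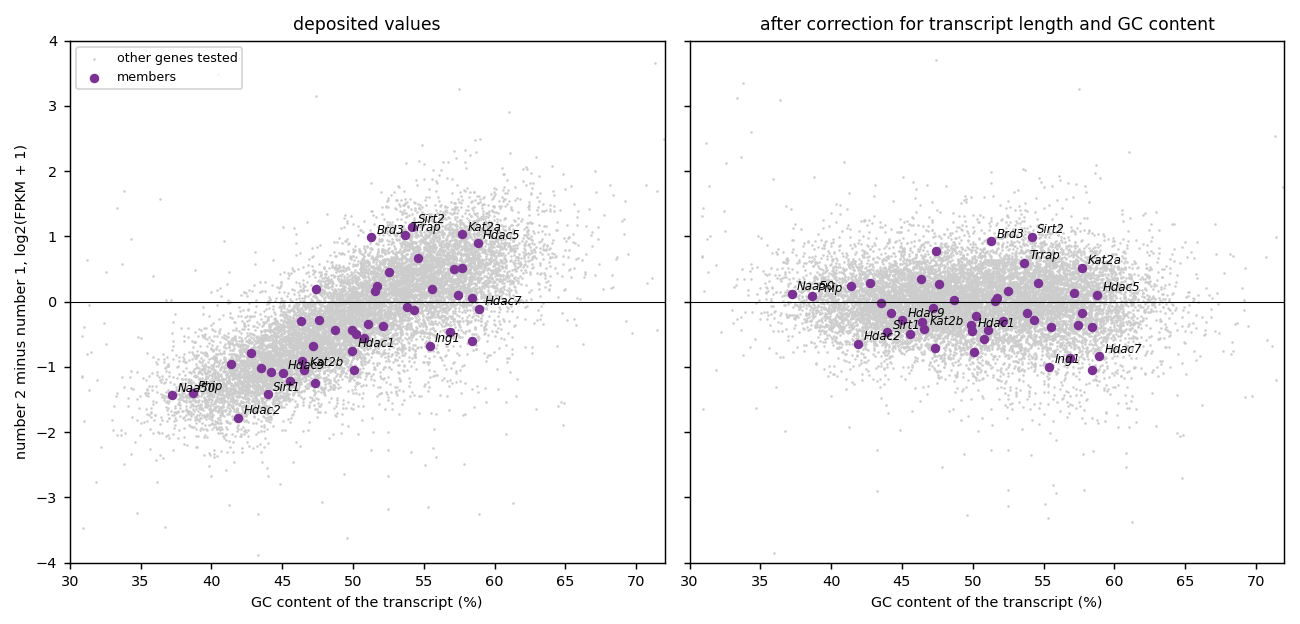
Difference between number 2 and number 1 on the log2(FPKM + 1) scale (y axis) against the GC content of the longest transcript in percent (x axis), as deposited (left) and after correction for transcript length and GC content (right). Grey points are the other genes tested and purple points the 45 members, some of them named. As deposited the members follow the slope of all genes from Naa50 and Hdac2 to Kat2a and Hdac5, and after correction Sirt2 and Brd3 lie highest among the members and Sirt7 and Ing1 lowest.

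Among the 7 lysine acetyltransferases, Kat2a was the most abundant, and it was higher in number 2 than in number 1 while its paralogue Kat2b was lower. Both are catalytic subunits of the SAGA and ATAC coactivators. Kat2a (ENSMUSG00000020918, chromosome 11, 100704746 to 100712465, minus strand, GRCm38) was listed at 18.4, 39.3 and 23.7 FPKM (AAV-scramble) and at 17.8, 37.05 and 22.9 FPKM (AAV-shbrpf1), in the order of the numbers 1, 2 and 3, which holds for all values below. The libraries numbered 2 stood above the other 4 and the groups overlapped. The difference between number 2 and number 1 was 1.03 ± 0.09 on the log2(FPKM + 1) scale (± SE as in all differences below, limma adjusted p = 0.00109), and 0.52 after the length and GC correction (adjusted p = 0.00931). Kat2b (ENSMUSG00000000708, chromosome 17, 53566861 to 53672720, plus strand) was listed at 5.61, 2.43 and 4.25 FPKM (AAV-scramble) and at 4.796, 1.61 and 4.53 FPKM (AAV-shbrpf1). Its libraries numbered 2 were the lowest, with a difference of -1.05 ± 0.15 from number 1 (limma adjusted p = 0.00269) and -0.41 after correction. Between the viruses Kat2b gave 4.099 ± 1.595 FPKM with AAV-scramble and 3.65 ± 1.77 FPKM with AAV-shbrpf1 (SD, n = 3). The difference of -0.17 ± 0.40 was far inside the spread of the libraries, with a blocked interval of -0.49 to 0.14. It turned to 0.04 without AAV-scramble library 1 and to 0.20 without AAV-shbrpf1 library 2. These fits had no block, so leaving out 1 library also changed the mix of replicate numbers in a group.

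Kat8, which acetylates histone H4 in the MSL and NSL complexes, had the smallest unadjusted p of the members that were lower with AAV-shbrpf1. It was listed at 7.38, 5.21 and 6.78 FPKM (AAV-scramble) and at 6.38, 4.89 and 5.26 FPKM (AAV-shbrpf1). Every pair was lower with AAV-shbrpf1, but the groups overlapped and the means were 6.46 ± 1.12 FPKM with AAV-scramble and 5.51 ± 0.775 FPKM with AAV-shbrpf1 (SD, n = 3). The difference was -0.19 ± 0.23 (SE, limma adjusted p = 1), with a blocked interval of -0.43 to 0.05. Hat1, which acetylates newly made histone H4 before it is deposited, was listed at 7.52, 3.41 and 6.34 FPKM (AAV-scramble) and at 8.42, 3.07 and 6.07 FPKM (AAV-shbrpf1). Its libraries numbered 2 were the lowest, with a difference of -1.08 ± 0.12 from number 1 (limma adjusted p = 0.00149), but after correction the difference was -0.17 and did not pass (adjusted p = 0.2502).

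Crebbp and Ep300, the CBP and p300 coactivators, were highest in number 3. Crebbp averaged 5.54, 6.69 and 10.6 FPKM in numbers 1, 2 and 3, and was higher in number 3 than in number 1 by 0.82 ± 0.11 (limma adjusted p = 0.00956). Ep300 averaged 6.44, 4.88 and 8.73 FPKM and with the deposited values passed only against number 2 (0.73 ± 0.13, limma adjusted p = 0.0101). The remaining acetyltransferase, Kat5, the catalytic subunit of TIP60, varied least, from 9.10 to 10.99 FPKM over the 6 libraries. A part of its exon bases, 12.1%, is shared with Rnaseh2c on the opposite strand, and since the counting's use of strand is unknown, reads of these genes may be mixed.

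The N-terminal acetyltransferases, which modify the first residue of proteins, differed in opposite directions between number 2 and number 1. Naa50 was listed at 20.8, 7.03 and 10.7 FPKM (AAV-scramble) and at 14.5, 4.76 and 13.7 FPKM (AAV-shbrpf1). Its libraries numbered 2 were the lowest and those numbered 1 the highest, and within pairs 1 and 2 AAV-shbrpf1 was lower while in pair 3 it was higher. Naa50 has the lowest GC content of the members, and its difference of -1.43 ± 0.22 between number 2 and number 1 (limma adjusted p = 0.00309) turned to 0.12 after correction, which did not pass. Naa10, the catalytic subunit of NatA, was listed at 4.67, 6.75 and 5.04 FPKM (AAV-scramble) and at 4.68, 7.29 and 4.57 FPKM (AAV-shbrpf1). It was higher in number 2 by 0.50 ± 0.12 (limma adjusted p = 0.0133), and after correction by 0.14, which did not pass. Naa10 shares 11.6% of its exon bases with Arhgap4 on the same strand.

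Of the 4 class I deacetylases, Hdac1, Hdac2 and Hdac3 were lower in number 2 than in number 1, and Hdac1 and Hdac2 stayed so with both other scalings and after correction. Hdac2 (ENSMUSG00000019777, chromosome 10, 36974544 to 37001889, plus strand) varied most. It was listed at 32.5, 8.32 and 19.2 FPKM (AAV-scramble) and at 27.3, 7.61 and 19.0 FPKM (AAV-shbrpf1). The numbers did not overlap, number 1 lying above number 3 and number 3 above number 2, while the virus groups overlapped. The difference of -1.78 ± 0.10 between numbers 2 and 1 (SE, limma adjusted p = 0.00104) was -0.65 after correction (adjusted p = 0.01002). Hdac1 (ENSMUSG00000028800, chromosome 4, 129516104 to 129542713, minus strand) averaged 11.3, 6.27 and 9.81 FPKM in numbers 1, 2 and 3. Its difference between numbers 2 and 1 was -0.76 ± 0.13, and -0.45 after correction, both past the threshold. The level of Hdac2 relative to Hdac1, with which it shares complexes, was 3.09, 1.25 and 2.03 with AAV-scramble and 2.25, 1.29 and 1.87 with AAV-shbrpf1.

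Hdac3, the deacetylase of NCoR complexes, was listed at 24.8, 17.2 and 15.7 FPKM (AAV-scramble) and at 24.4, 16.97 and 16.2 FPKM (AAV-shbrpf1). The libraries numbered 1 were the highest, and the 2 viruses differed by less than 3% within every pair. Hdac3 was lower in number 3 than in number 1, with a difference of -0.59 ± 0.09 (limma adjusted p = 0.0115), and of -0.53 after correction (adjusted p = 0.0117). Hdac8, which deacetylates cohesin, was the least abundant of the class at 1.20 to 2.61 FPKM and did not pass the F test.

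The class IIa deacetylases, which shuttle between nucleus and cytoplasm and repress targets of MEF2 factors, showed no common direction. Hdac5 was listed at 15.9, 30.5 and 13.9 FPKM (AAV-scramble) and at 14.97, 29.03 and 14.4 FPKM (AAV-shbrpf1). Its libraries numbered 2 stood above the other 4, with a difference of 0.91 ± 0.10 to number 1 (limma adjusted p = 0.00135) that was 0.10 after correction and did not pass. Against number 3, number 2 stayed higher after correction. Hdac9 was listed at 12.6, 5.10 and 3.42 FPKM (AAV-scramble) and at 10.5, 4.67 and 4.45 FPKM (AAV-shbrpf1). Here number 1 stood above the other 4 libraries, and the difference of -1.35 ± 0.16 between numbers 3 and 1 (limma adjusted p = 0.00772) was -1.21 after correction (adjusted p = 0.00793). Hdac5 exceeded Hdac9 by 1.26 and 1.43 times in number 1, 5.97 and 6.21 times in number 2 and 4.08 and 3.23 times in number 3, AAV-scramble first. Hdac4 averaged 1.85, 2.89 and 4.19 FPKM and was higher in number 3 than in number 1 (0.86 ± 0.14, limma adjusted p = 0.0118). Hdac7 lay between 2.75 and 3.399 FPKM and did not pass as deposited, but after correction it was lower in numbers 2 and 3 than in number 1, by differences of -0.84 and -0.47 (adjusted p = 0.00886 and 0.0411). Hdac4 shares 22.4% of its exon bases with Gm26720 on the opposite strand.

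Of the class IIb and IV enzymes, Hdac6, the cytoplasmic tubulin deacetylase, was listed at 12.5, 21.1 and 11.5 FPKM (AAV-scramble) and at 12.2, 19.5 and 10.8 FPKM (AAV-shbrpf1). The libraries numbered 2 were the highest, by 0.67 ± 0.10 over number 1 (limma adjusted p = 0.00242) and 0.29 after correction (adjusted p = 0.0359). Hdac10, a polyamine deacetylase, was low throughout, at 2.45, 1.496 and 1.39 FPKM (AAV-scramble) and at 2.17, 1.28 and 1.502 FPKM (AAV-shbrpf1). It was highest in number 1, and its difference of -0.47 ± 0.14 between numbers 2 and 1 passed (limma adjusted p = 0.0311), with -0.86 after correction (adjusted p = 0.0114), but not with median-ratio scaling or quantile normalization.

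Hdac11, the only class IV member and the most abundant of these enzymes, was listed at 26.7, 27.3 and 17.7 FPKM (AAV-scramble) and at 20.1, 22.6 and 19.3 FPKM (AAV-shbrpf1). The AAV-scramble libraries 1 and 2 were the highest of the 6 and the groups overlapped. The means were 23.9 ± 5.35 FPKM with AAV-scramble and 20.7 ± 1.75 FPKM with AAV-shbrpf1 (SD, n = 3), a difference of -0.18 ± 0.25 (SE, limma adjusted p = 1), with pair 3 running against pairs 1 and 2. Hdac11 shares 15.4% of its exon bases with Gm44002 on the opposite strand, which was listed at 0.

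Of the 6 sirtuins, 2 differed by number in the F test, Sirt2 and Sirt1 (background 69.4%), and after correction 4 did, Sirt2, Sirt5, Sirt6 and Sirt7 (background 43.3%), while Sirt1 did not (adjusted p = 0.0645). Sirt2 (ENSMUSG00000015149, chromosome 7, 28766735 to 28788661, plus strand), a cytoplasmic deacetylase known for its high level in oligodendrocytes, was listed at 9.15, 23.5 and 23.2 FPKM (AAV-scramble) and at 9.59, 20.4 and 18.3 FPKM (AAV-shbrpf1). Both libraries numbered 1 were well below the other 4, and the groups overlapped. The difference to number 1 was 1.14 ± 0.13 for number 2 and 1.06 ± 0.13 for number 3 (limma adjusted p = 0.00141 and 0.00772), and 1.00 and 0.99 after correction. Summed oligodendrocyte lineage markers were 138 and 157 FPKM in number 1 and 234 to 321 FPKM in the other 4 libraries, and their part in the level of Sirt2 was not tested.

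Sirt1, the nuclear NAD-dependent deacetylase, was listed at 3.25, 0.718 and 1.63 FPKM (AAV-scramble) and at 3.10, 0.415 and 2.11 FPKM (AAV-shbrpf1). It was lowest in number 2 with both viruses, with a difference of -1.42 ± 0.18 from number 1 (limma adjusted p = 0.00172) and -0.47 after correction (adjusted p = 0.0383). The lowest value rests on an estimated 24.0 fragments, so counting error alone is 20.4% of it. Sirt3 and Sirt5, both mitochondrial, had the smallest unadjusted p among members higher with AAV-shbrpf1. Sirt3 was listed at 4.01, 3.67 and 3.29 FPKM (AAV-scramble) and at 4.74, 4.47 and 3.11 FPKM (AAV-shbrpf1), 0.12 ± 0.23 between the viruses (SE, limma adjusted p = 1), with pairs 1 and 2 higher and pair 3 lower. Sirt5 was listed at 1.07, 1.57 and 1.59 FPKM (AAV-scramble) and at 1.42, 1.54 and 1.69 FPKM (AAV-shbrpf1), a difference of 0.09 ± 0.22. In a fit without the block, this difference turned to -0.02 when AAV-scramble library 1 was left out. The groups overlapped for both genes. Sirt3 shares 7.0% of its exon bases with Ric8a and 5.73% with Psmd13, both on the opposite strand. Sirt6 and Sirt7, nuclear enzymes of chromatin and the nucleolus, ranged from 3.79 to 5.64 and from 1.45 to 3.18 FPKM.

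**Figure D4:**
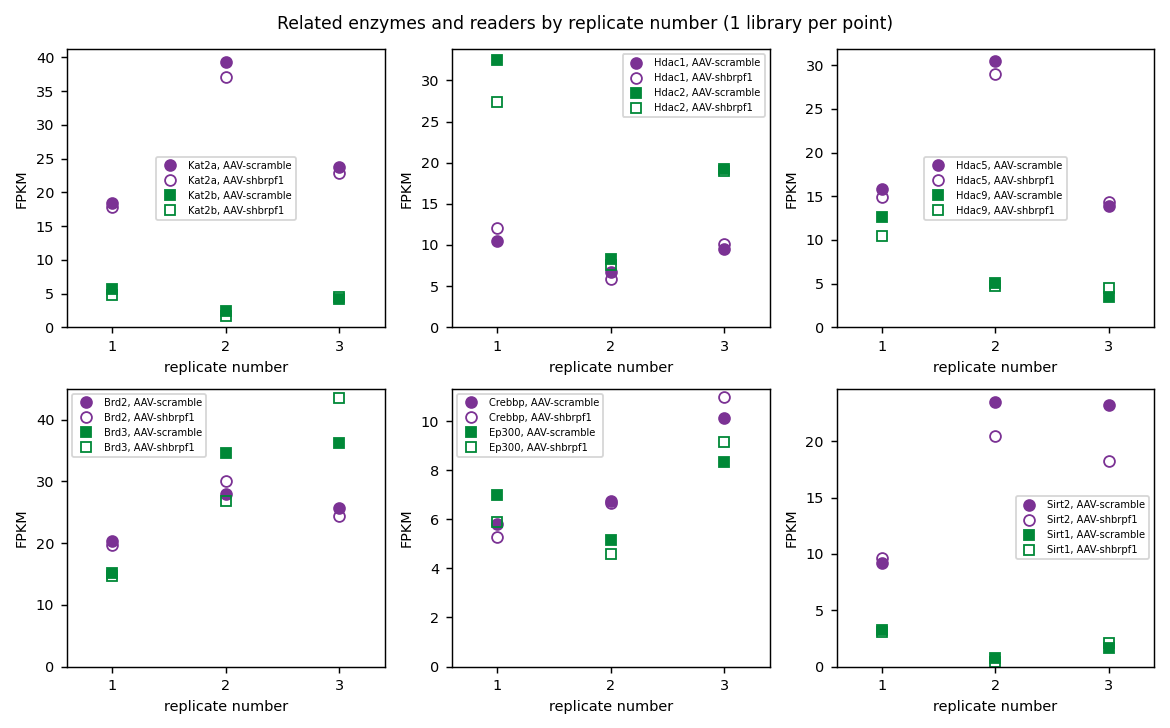
Expression in FPKM (y axes, from 0) of related enzymes and readers by replicate number (x axes), 1 library per point. Filled symbols are AAV-scramble and open symbols AAV-shbrpf1. Kat2a and Kat2b, Hdac5 and Hdac9, and Sirt2 and Sirt1 move apart in number 2, while the virus hardly separates the symbols of a number.

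All 5 bromodomain proteins of the BET family and of the TIP60 and SWI/SNF complexes differed by number in the F test (background 69.4%), and 3 did after correction (background 43.3%), without Brd2 and Brd7. Brd3 (ENSMUSG00000026918, chromosome 2, 27445579 to 27507662, minus strand), a BET reader of acetylated histones, was the most abundant of the 48 members at a mean of 28.5 FPKM. It was listed at 15.1, 34.5 and 36.3 FPKM (AAV-scramble) and at 14.7, 26.9 and 43.6 FPKM (AAV-shbrpf1). The libraries numbered 1 were the lowest and the groups overlapped, pair 2 being lower and pair 3 higher with AAV-shbrpf1. The difference to number 1 was 0.99 ± 0.16 for number 2 and 1.36 ± 0.16 for number 3 (limma adjusted p = 0.00334 and 0.00756), and 0.93 and 1.16 after correction. Brd2, the other BET member here, ranged from 19.6 to 30.04 FPKM, and its higher level in number 2 (0.52 ± 0.10, limma adjusted p = 0.00616) turned to -0.17 after correction, which did not pass.

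Brd8, a subunit of TIP60, was listed at 9.36, 3.498 and 5.26 FPKM (AAV-scramble) and at 8.96, 3.07 and 5.999 FPKM (AAV-shbrpf1). It was highest in number 1 and lowest in number 2, with a difference of -1.25 ± 0.13 between these (limma adjusted p = 0.00127) and -0.71 after correction (adjusted p = 0.00745). Brd9, of the non-canonical BAF remodeler, had the same order, with means of 10.3, 4.49 and 6.09 FPKM in numbers 1, 2 and 3. Brd7, of the PBAF remodeler, averaged 11.04, 6.56 and 11.7 FPKM, and its lower level in number 2 (-0.67 ± 0.10 against number 1, limma adjusted p = 0.00299) was -0.09 after correction, which did not pass.

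The WD-repeat bromodomain proteins Phip and Brwd1 were both lower in number 2. Phip was listed at 3.72, 0.856 and 0.776 FPKM (AAV-scramble) and at 3.01, 0.453 and 1.05 FPKM (AAV-shbrpf1). Both libraries numbered 1 stood above the other 4, and the difference to number 1 was -1.41 ± 0.19 for number 2 and -1.19 ± 0.19 for number 3 (limma adjusted p = 0.00205 and 0.0117). Phip has a GC content of 38.7%, and after correction these differences were 0.09, which did not pass, and -0.55 (adjusted p = 0.0354). Brwd1 was listed at 6.84, 2.72 and 5.11 FPKM (AAV-scramble) and at 6.13, 1.78 and 6.75 FPKM (AAV-shbrpf1). Number 2 was the lowest, with a difference of -1.22 ± 0.20 from number 1 (limma adjusted p = 0.00369) and -0.49 after correction, and numbers 1 and 3 overlapped.

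The readers of chromatin remodelers, Bptf of NURF and Baz1b of WICH, were higher in number 3 than in numbers 1 and 2 with the deposited values, with both other scalings and after correction. Baz1b (ENSMUSG00000002748, chromosome 5, 135187264 to 135246129, plus strand) was listed at 9.66, 5.96 and 15.2 FPKM (AAV-scramble) and at 9.64, 6.48 and 17.2 FPKM (AAV-shbrpf1). Numbers 3, 1 and 2 followed in falling order without overlap, with 1.25 ± 0.11 between 3 and 2 (limma adjusted p = 0.00485) and 1.04 after correction (adjusted p = 0.00942). Bptf (ENSMUSG00000040481, chromosome 11, 107033081 to 107132127, minus strand) was listed at 10.05, 7.01 and 15.9 FPKM (AAV-scramble) and at 9.23, 6.79 and 17.4 FPKM (AAV-shbrpf1). It had the same order, with 1.16 ± 0.11 between 3 and 2 (limma adjusted p = 0.00485) and 0.77 after correction. Baz2a, of the NoRC silencer of ribosomal DNA, lay between 6.30 and 8.73 FPKM and did not pass the F test. Baz2b averaged 3.49, 1.39 and 3.88 FPKM. Baz1a, of the ACF remodeler, was listed at 0.793, 0.274 and 0.487 FPKM (AAV-scramble) and at 0.681, 0.138 and 0.6698 FPKM (AAV-shbrpf1), and Cecr2 at 0.129, 0.154 and 0.561 FPKM (AAV-scramble) and at 0.195, 0.137 and 0.639 FPKM (AAV-shbrpf1).

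Atad2b, an AAA ATPase with a bromodomain, was listed at 3.64, 1.25 and 2.18 FPKM (AAV-scramble) and at 2.98, 1.02 and 2.68 FPKM (AAV-shbrpf1). Number 2 was the lowest, with a difference of -1.01 ± 0.16 from number 1 (limma adjusted p = 0.00352), but after correction the difference was -0.02 and did not pass. Its paralogue Atad2, linked to proliferation, was listed at 1.03, 0.331 and 0.735 FPKM (AAV-scramble) and at 1.14, 0.305 and 0.846 FPKM (AAV-shbrpf1). Markers of cycling cells summed to 69.4 and 64.6 FPKM in number 2 and to 98.2 to 116 FPKM in the other 4 libraries. Of these 14 markers, 1 was higher and 8 lower in number 2 than in number 1 (all genes 22.9% and 42.4%). After correction 3 were higher and 2 lower (all genes 18.4% and 17.1%). The part of cycling cells in the level of Atad2 was not tested.

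Of the 7 scaffold and PHD finger subunits, Trrap, the large scaffold shared by SAGA and TIP60, was the most abundant. Trrap (ENSMUSG00000045482, chromosome 5, 144767732 to 144859778, plus strand) was listed at 9.98, 21.7 and 14.6 FPKM (AAV-scramble) and at 9.91, 20.9 and 15.2 FPKM (AAV-shbrpf1). Numbers 2, 3 and 1 followed in falling order without overlap, while within each pair the viruses were within 5% of each other. The difference between numbers 2 and 1 was 1.03 ± 0.10 (SE, limma adjusted p = 0.00115) and 0.60 after correction (adjusted p = 0.00731). Ing3, of TIP60, was listed at 3.91, 1.38 and 2.37 FPKM (AAV-scramble) and at 3.24, 1.33 and 2.34 FPKM (AAV-shbrpf1). It was highest in number 1, with a difference of -0.95 ± 0.14 for 2 against 1 (limma adjusted p = 0.00244), which turned to 0.24 after correction and did not pass.

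Ing1 and Ing2 bring SIN3 deacetylase complexes to methylated histone H3. Ing1 averaged 9.75, 5.72 and 6.23 FPKM in numbers 1, 2 and 3, and was lower in number 2 than in number 1, with a difference of -0.67 ± 0.12 as deposited and -0.99 after correction (limma adjusted p = 0.00454 and 0.00584). Ing2 was listed at 3.72, 2.42 and 3.91 FPKM (AAV-scramble) and at 3.404, 3.15 and 4.26 FPKM (AAV-shbrpf1). It was named for a small unadjusted p among members higher with AAV-shbrpf1, but the groups overlapped. The difference was 0.09 ± 0.25 (SE, limma adjusted p = 1). In fits without the block, it turned to -0.07 without AAV-scramble library 2 and to -0.01 without AAV-shbrpf1 library 3. Jade1, Jade2 and Jade3, scaffolds of Kat7 in the place that Brpf proteins take in other complexes, were low, with means of 2.95, 1.65 and 1.20 FPKM over the 6 libraries. Of these only Jade3 passed the F test, and its lower level in number 2 (-0.79 ± 0.17 against number 1, limma adjusted p = 0.00917) turned to 0.28 after correction, which did not pass.

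**Figure D5:**
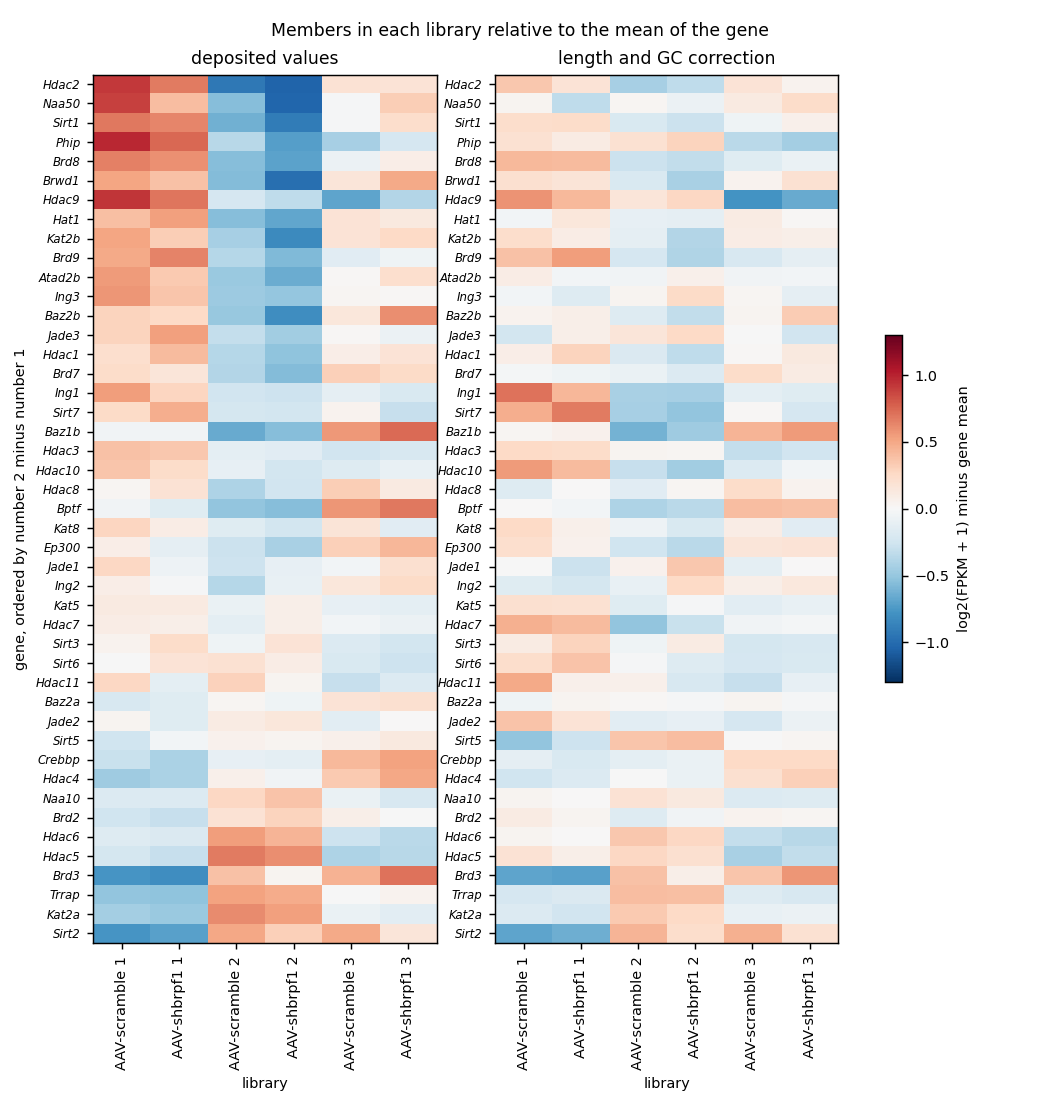
Level of the 45 members tested in each library relative to the mean of the gene (color, log2(FPKM + 1) units), as deposited (left) and after correction for transcript length and GC content (right). Rows are genes ordered by the difference between numbers 2 and 1 and columns are libraries placed by number. Neighbouring columns of one number match each other across the viruses, and the block of low values in number 2 at the top left, from Hdac2 to Ing3, is paler after correction.

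The partners of these enzymes were read from 10 lists of complex subunits and of genes that supply acetyl-CoA or NAD. In the virus comparison 0 of their genes passed in limma. In the replicate numbers, NuRD, the remodeling and deacetylase complex of Hdac1 and Hdac2, is given by its counts, which were not tested as a set. Of its 12 genes, 7 were higher and 2 lower in number 2 than in number 1, 9 higher and 0 lower in number 3 than in number 1, and 3 higher and 5 lower in number 3 than in number 2. The shares of all genes stand above, at 22.9% and 42.4%, 15.3% and 15.8%, and 34.3% and 12.9%. After correction these counts were 8 and 1, 5 and 0, and 1 and 4 (all genes 18.4% and 17.1%, 13.1% and 12.9%, and 9.57% and 10.9%), and without both libraries numbered 2 the count for 3 against 1 was 10 and 0. Its remodeler Chd4 was listed at 27.2, 63.4 and 65.2 FPKM (AAV-scramble) and at 27.4, 61.4 and 63.7 FPKM (AAV-shbrpf1), and Chd5, a neuronal paralogue, at 32.9, 89.5 and 54.1 FPKM (AAV-scramble) and at 32.9, 87.9 and 53.5 FPKM (AAV-shbrpf1). Both were lowest in number 1, by 1.16 ± 0.09 and 1.40 ± 0.09 for 2 against 1 (limma adjusted p = 0.00104 and 0.00104), and 0.86 and 0.58 after correction. The deacetylases Hdac1 and Hdac2 were lower in number 2 than in number 1, the reverse of these remodelers.

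Of 22 other subunits of SAGA and ATAC, the complexes of Kat2a and Kat2b, 5 were higher and 11 lower in number 2 than in number 1, shares near the 22.9% and 42.4% of all genes, 3 and 6 after correction, and 7 and 6 with quantile normalization. Usp22, the SAGA deubiquitinase, was higher by 0.70 ± 0.10 (limma adjusted p = 0.00222) and Mbip, a subunit of ATAC, lower, with a difference of -2.06 ± 0.15 (limma adjusted p = 0.00104). Of 13 other TIP60 subunits, 4 were higher and 8 lower, and 2 and 5 after correction. Among them Ep400 was higher by 0.88 ± 0.11 and Morf4l1 lower, with -1.16 ± 0.09 (limma adjusted p = 0.00174 and 0.00105). Against the same shares of all genes, the SIN3 list (10 genes) gave 3 higher and 5 lower, and the MSL and NSL list (10 genes) 3 and 5, both even at 4 and 4 with median-ratio scaling. CoREST (9 genes) gave 2 and 3, turning to 5 and 2 with median-ratio scaling and to 0 and 2 after correction. The genes of the Brpf1 complexes (9 genes) gave 4 and 2, and 2 and 1 after correction.

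Ncor1, a corepressor that binds Hdac3, was listed at 18.4, 10.1 and 17.6 FPKM (AAV-scramble) and at 15.8, 9.33 and 19.7 FPKM (AAV-shbrpf1). It was lower in number 2 than in number 1, with a difference of -0.75 ± 0.12 (limma adjusted p = 0.00361), and of -0.46 after correction, which passed too. Of 10 genes of acetyl-CoA supply, 2 were higher and 6 lower in number 2 than in number 1 (all genes 22.9% and 42.4%), 2 and 3 with median-ratio scaling and 2 and 4 after correction, with Pdha1 and Pdhb, subunits of pyruvate dehydrogenase, lower, with differences of -1.15 ± 0.10 and -0.93 ± 0.09 (limma adjusted p = 0.00112 and 0.00122). Of 6 tested genes of NAD supply, 0 were higher and 3 lower, a split that turned to 3 and 2 with median-ratio scaling and to 2 and 1 with quantile normalization. Nampt, the salvage enzyme that feeds the sirtuins, was lower, with a difference of -1.62 ± 0.12 (limma adjusted p = 0.00104), and -0.31 after correction, which did not pass.

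Other values moved with the replicate numbers too. Progenitor markers summed to 334 and 302 FPKM in number 2 and to 834 to 953 FPKM in the other 4 libraries, mostly through Fabp7. Fibroblast markers summed to 58.3 and 32.9 FPKM and endothelial and mural markers to 28.0 and 25.8 FPKM in number 1, against at most 20.1 and 2.86 FPKM in the others. Astrocyte markers summed to 334 and 338, 549 and 514, and 992 and 841 FPKM in numbers 1, 2 and 3, largely through Apoe. Of the 9 astrocyte markers, 3 were higher and 3 lower in number 2 than in number 1, with a median difference of -0.12. The part of these cell classes, of the ribosomal RNA share and of whatever the numbers stand for in the differences between members was not tested.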

How the data were processed

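RNA was sequenced from 6 libraries, 3 per virus. The table deposited by the authors gives 1 value per gene and library. Its header names no unit. The values deposited by the authors were taken as FPKM, fragments divided by transcript length and library depth, from their scale and their steps. The submitters' processing notes name FastQC, StringTie, DESeq2 and the build mm9 as used by the authors, without their roles. The aligner, the annotation and the strand setting were not given in the sources used here. Of 55154 gene identifiers found in GENCODE M21, 54899 carry that annotation's start and end, and coordinates are therefore given in GRCm38.

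FPKM were tested as log2(FPKM + 1) with limma 3.58.1 (trend) in R 4.3.3, two-sided, with Benjamini-Hochberg adjustment over the 12792 genes that averaged 1 FPKM or more in either group. A count test was not used, because FPKM are not counts. Fragments per library were estimated from the smallest steps of the values, at 13100000 to 21100000 fragments, and precision at low levels is limited by them. The virus was tested alone and the replicate number with the virus in the model. Same-numbered libraries deviated together across genes (r = 0.87, 0.83 and 0.57, other pairs at most 0.00), so a fit with the number as a block is given too. The fits were tested on simulated data. Alternatives were other pseudocounts, filters and scalings, leaving out libraries, and a loess correction of each library for transcript length and GC content. The deposited table held 0 columns of other samples.

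The members, lists and named genes were chosen with earlier results of these data known. Genes are given in every library when they had 1 of the 3 smallest p-values in either direction of the virus comparison, the highest mean of their role class, or 1 of the 2 smallest p-values of the class in the replicate number test. From each complex or supply list at most 2 genes per contrast and direction of smallest p were named. The members below the filter and those named beside a paralogue or for a stable call were added after their values were seen.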

Additional observations from a re-analysis of the deposited data

How the results depend on the processing

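In the virus comparison 0 members passed under every alternative run, including the replicate block and the block with length and GC correction. Over all genes the count was 0 without and with the replicate block. With the block and without both libraries of a number it ran from 0 to 8, with 8 without replicate 2 and 1 without replicate 3. The Brpf1 difference was -0.18 with the replicate block too, ran from -0.36 to -0.06 when 1 library was left out, and was never past the threshold. It was not tested under the filter of 5 FPKM. The block changed no other call. When 1 library was left out, the virus difference of Kat2b ran from -0.43 to 0.20, that of Sirt5 from -0.020 to 0.14 and that of Ing2 from -0.072 to 0.19. It changed sign for Kat2b without AAV-scramble library 1 (0.042) and AAV-shbrpf1 library 2, for Sirt5 without AAV-scramble library 1, and for Ing2 without AAV-scramble library 2 and without AAV-shbrpf1 library 3. In the virus comparison, Ing2 also changed sign with the block without replicate 2 (-0.00071). None of these was past the threshold. The fits without 1 library had no block, so they also changed which replicate numbers each group held.

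In the replicate number comparison, all genes included, 8876 passed with the deposited values, 5493 under the filter of 5 FPKM, where fewer genes were tested, 5536 after length and GC correction, and 4793 to 8885 when 1 library was left out, with the lowest counts without AAV-scramble library 1 (4793) and AAV-shbrpf1 library 1 (5331). The members' count of 32 ran from 21 to 34 when 1 library was left out. For 2 against 1 the count of 32 was 21 under the filter of 5 FPKM, 21 after correction and 20 to 33 when 1 library was left out. For 3 against 1 the count of 16 was 8 with no filter and 0 to 18 when 1 library was left out. For 3 against 2 the count of 22 was 12 with no filter, 12 after correction and 10 to 22 when 1 library was left out. Under the filter of 5 FPKM fewer members were tested, and for 2 against 1 none of the called members that were kept lost its call. A number left with 1 library is assumed to vary like the others. After correction the difference of 2 against 1 changed sign for Naa50 (0.12), Brd2 (-0.17), Phip (0.086), Ing3 (0.24) and Jade3 (0.28), and that of 3 against 2 for Atad2b (-0.050) and Ing3 (-0.18). The cause of these changes was not tested. Leaving out both libraries numbered 2, chosen after seeing the data, gave 18 members for 3 against 1. Depth limits the lowest values most, such as Sirt1 at an estimated 24.0 fragments and Baz1a at 11.2.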
